A study of Mus musculus with 4 samples.

Results

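Imprinted growth genes were followed across 4 Rb states of mouse embryonic fibroblasts (MEFs), primary fibroblasts cultured from mouse embryos. The genes were Igf2, H19, Dlk1, Gtl2, Mest, Peg3, Ndn, Grb10, Plagl1 and Zac1, taken by their symbol in the deposited table with every probe they have on the array. Of the 10 names, 9 had a probe and 8 were detected, among the 12616 genes detected of 30872 gene symbols on the array. No probe carried the name Zac1, which RefSeq lists as an older name of Plagl1, and RefSeq lists Gtl2 as an older name of Meg3. Of 20 member probes, 14 were detected on all 4 arrays and 6 on none.

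The study asked how Rb that cannot be phosphorylated by cyclin-dependent kinases (Cdks) differs in function from wild type Rb. RNA from each of 4 MEF cultures of strain FVB;129 was hybridised to 1 Illumina mouse whole-genome BeadChip array. All the cells carried Rb alleles flanked by LoxP sites (Rb f/f), and per the study's methods all were contact arrested in early G1 phase, released, and given doxorubicin, a DNA-damaging drug, at a sub-lethal dose that the sample labels do not mention. Parental MEFs received 2 treatments of 1 h, 3 h apart, with a solution without TAT-Cre, and then media without virus. Rb-deleted MEFs received 2 treatments of 1 h, 3 h apart, with TAT-Cre, a cell-permeable Cre recombinase, and media without virus. WT Rb-HA MEFs received TAT-Cre in the same way and 2 infections of 1 h, 3 h apart, with a retrovirus for HA-tagged wild type Rb. ΔCdk Rb-HA MEFs received TAT-Cre and, on the same schedule, a retrovirus for HA-tagged Rb that lacks its Cdk phosphorylation sites. With 1 array per condition there was no replicate, no test between conditions was possible, and the condition cannot be told apart from the culture, the RNA preparation or the place of the array on the shared BeadChip. Only parental MEFs lacked TAT-Cre, so that loss of Rb and exposure to TAT-Cre cannot be told apart in any comparison with them. Likewise the retrovirus was present in both Rb-HA cultures alone, so that ectopic Rb and infection cannot be told apart when either is set against uninfected cells. In RNA from a whole culture, fewer cells of a type and less RNA per cell cannot be told apart either.

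Imprinted genes are transcribed from only the maternal or only the paternal copy, which is set by DNA methylation laid down in the germ line and kept through each cell division. Many of them act on growth before birth and are then turned down after birth, and embryonic fibroblasts still express several at a high level. Paternally expressed members tend to promote growth (Igf2, Dlk1, Mest, Peg3) and several maternally expressed ones restrain it (H19, Grb10), although the genes of 1 domain need not move together. Igf2 lies next to H19, and Dlk1 next to Gtl2, and in each pair the paternal copy makes the growth factor or membrane protein and the maternal copy makes a long noncoding RNA.

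The sequences of 5 member probes and of 3 probes that carry the name Meg3 show what was measured in the domains with a noncoding partner, and are given as in the deposited table. The number after each name is the start of the probe on its source transcript. Capitals mark the 45 bases that a pair of Meg3 probes hold in opposite orientation.
Dlk1, 1200: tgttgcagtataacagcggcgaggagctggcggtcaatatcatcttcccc
H19, 2304: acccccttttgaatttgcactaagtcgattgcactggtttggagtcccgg
H19, 2558: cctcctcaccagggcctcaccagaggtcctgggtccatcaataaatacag
Gtl2, 2: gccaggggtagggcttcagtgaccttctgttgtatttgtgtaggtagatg
Gtl2, 12: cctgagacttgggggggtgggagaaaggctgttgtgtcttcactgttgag
Meg3, 1921: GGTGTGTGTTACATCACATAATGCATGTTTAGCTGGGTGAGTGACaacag
Meg3, 1965: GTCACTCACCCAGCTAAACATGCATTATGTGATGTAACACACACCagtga
Meg3, 2739: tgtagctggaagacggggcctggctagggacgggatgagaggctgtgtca
The Meg3 probes at 1921 and 1965 read opposite strands of the same 45 bases, so that only 1 of them can match the RNA of a given strand. The Gtl2 probes and all 3 Grb10 probes carry no RefSeq transcript in the table, and their positions refer to other transcript collections. Among the Mest probes, those at 2159 and 2160 share 49 of their bases, which makes them nearly the same measurement made on separate beads.

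The arrays were alike in depth. Between 15950 and 16740 of 45281 probes were detected per array (detection p below 0.01), the median probe was read by 44 beads on each array, and member probes were read by 23 to 70 beads. The Rb1 probe at position 4421 read 542.7 in parental, 160.5 in Rb-deleted, 180.9 in WT Rb-HA and 170.1 in ΔCdk Rb-HA MEFs, in units of deposited intensity. Its log2 ratio to the parental array was -1.88 (bead SE 0.08), -1.69 (bead SE 0.06) and -1.75 (bead SE 0.06), which goes with the labelled deletion. Whether the retroviral RNAs contain the stretch read by this probe is not given in the sources used here.

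Levels below are deposited intensities on a linear scale. Differences are log2 ratios after background correction and quantile normalization. The bead standard error (bead SE) covers the spread among beads of 1 probe on an array and nothing that differs between cultures. A gene is called higher or lower where its brightest detected probe passed 1.6-fold, 0.68 on the log2 scale, the filter used in the study.

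Igf2, the fetal growth factor that signals through the IGF1 and insulin receptors, was among the brightest genes of these cells. Its only probe, at position 4585 (chromosome 7), read 24961 in parental, 23126 in Rb-deleted, 23666 in WT Rb-HA and 20083 in ΔCdk Rb-HA MEFs. Only 48 probes were brighter on the parental array and 85 with ΔCdk Rb-HA. The ΔCdk Rb-HA array was lowest, at a log2 ratio of -0.31 (bead SE 0.04) to parental, -0.23 (bead SE 0.05) to Rb-deleted and -0.21 (bead SE 0.04) to WT Rb-HA. The other arrays lay within 0.10 of each other on the log2 scale, and the ratio of WT Rb-HA to Rb-deleted was -0.02 (bead SE 0.04) and changed sign with the scaling, between -0.02 and 0.03. No comparison of Igf2 passed 1.6-fold.

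H19, the maternal noncoding RNA of the Igf2 domain (chromosome 7) and host of a microRNA, was also very bright, and its order over the arrays differed from that of Igf2. The probe at 2558 read 17940 in parental, 22317 in Rb-deleted, 20802 in WT Rb-HA and 14614 in ΔCdk Rb-HA MEFs. The probe at 2304 read 13493, 17039, 14964 and 9205 in the same order of conditions. On both probes Rb-deleted was highest and ΔCdk Rb-HA lowest. Against parental, the Rb-deleted array was higher by a log2 ratio of 0.32 (bead SE 0.04) at 2558 and 0.33 (bead SE 0.05) at 2304. Against Rb-deleted, the ΔCdk Rb-HA array stood at -0.65 (bead SE 0.04) at 2558, just inside 1.6-fold, and at -0.88 (bead SE 0.04) at 2304, beyond it. WT Rb-HA lay between Rb-deleted and parental, with a step to parental of 0.16 (bead SE 0.04) at 2558 and of 0.09 (bead SE 0.05) at 2304, the latter within 2 bead SE.

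Dlk1, a membrane protein of the Notch ligand family that holds back the differentiation of fat cell precursors, varied most of the members. At 1408 its probe read 13283 in parental, 19306 in Rb-deleted, 16491 in WT Rb-HA and 6218 in ΔCdk Rb-HA MEFs. At 1200 the readings were 3646, 6554, 4857 and 1287. Both probes gave the order Rb-deleted, WT Rb-HA, parental and ΔCdk Rb-HA, with every step over 2 bead SE. The ΔCdk Rb-HA array was 3.12-fold below the Rb-deleted array at 1408 (log2 ratio -1.64, bead SE 0.04) and 5.19-fold below it at 1200 (-2.38, bead SE 0.04). It was lower than parental by -1.07 (bead SE 0.05) and -1.44 (bead SE 0.04) at the same probes, and lower than WT Rb-HA by -1.39 (bead SE 0.05) and -1.89 (bead SE 0.05). In Rb-deleted MEFs Dlk1 was higher than in parental MEFs by 0.58 (bead SE 0.05) at 1408, short of 1.6-fold, and by 0.94 (bead SE 0.04) at 1200, past it. WT Rb-HA stood at -0.25 (bead SE 0.04) and -0.49 (bead SE 0.05) to Rb-deleted, and above parental by 0.32 (bead SE 0.06) and 0.45 (bead SE 0.05). The sizes differed between the probes by more than either bead SE in each comparison, although the signs did not.

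Gtl2, the maternal noncoding RNA of the Dlk1 domain (both on chromosome 12 in RefSeq, GRCm38.p6), did not follow Dlk1. Its detected probe, at 12, read 185.3 in parental, 194.9 in Rb-deleted, 206.9 in WT Rb-HA and 178.6 in ΔCdk Rb-HA MEFs. None of its steps over the ordered arrays exceeded 2 bead SE, and the ratio of ΔCdk Rb-HA to parental was 0.00 (bead SE 0.11), with values from -0.07 to 0.00 over the scalings. The second Gtl2 probe, at 2, read 49.1 to 54.3 and was not detected, nor were the 3 Meg3 probes printed above. The level of this transcript therefore rests on 1 dim probe with no RefSeq transcript.

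The 250 bases before the annotated starts of Dlk1 and Gtl2 are shown because the 2 genes share a domain and their values differed. They come from RefSeq (GRCm38.p6, plus strand). Capitals mark the TATAAA matches, which overlap on both strands.
Dlk1, chr12:109452573-109452822: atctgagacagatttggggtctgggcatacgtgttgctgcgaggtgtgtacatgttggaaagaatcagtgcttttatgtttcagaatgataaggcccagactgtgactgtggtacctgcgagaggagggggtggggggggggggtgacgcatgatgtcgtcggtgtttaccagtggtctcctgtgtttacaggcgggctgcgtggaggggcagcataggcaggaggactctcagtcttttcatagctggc
Gtl2, chr12:109540746-109540995: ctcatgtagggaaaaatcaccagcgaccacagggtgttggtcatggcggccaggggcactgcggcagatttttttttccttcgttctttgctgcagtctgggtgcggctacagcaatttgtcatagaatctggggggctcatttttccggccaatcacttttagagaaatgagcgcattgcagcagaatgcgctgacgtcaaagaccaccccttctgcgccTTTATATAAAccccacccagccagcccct
Windows of 300 bases around the start were given for 8 of the members, 15 windows in all, and none for H19. On both strands, none of these windows held the E2F motifs TTTCCCGC or TTTGGCGC, which stood in 1.07% and 0.514% of all 32851 windows. The GGGGCCCC element bound by the zinc finger protein that Plagl1 encodes stood in the Peg3 window alone among the members and in 1.08% of all windows. TATAAA stood in 1 of the Gtl2 windows and in 13.6% of all windows.

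**Figure D1:**
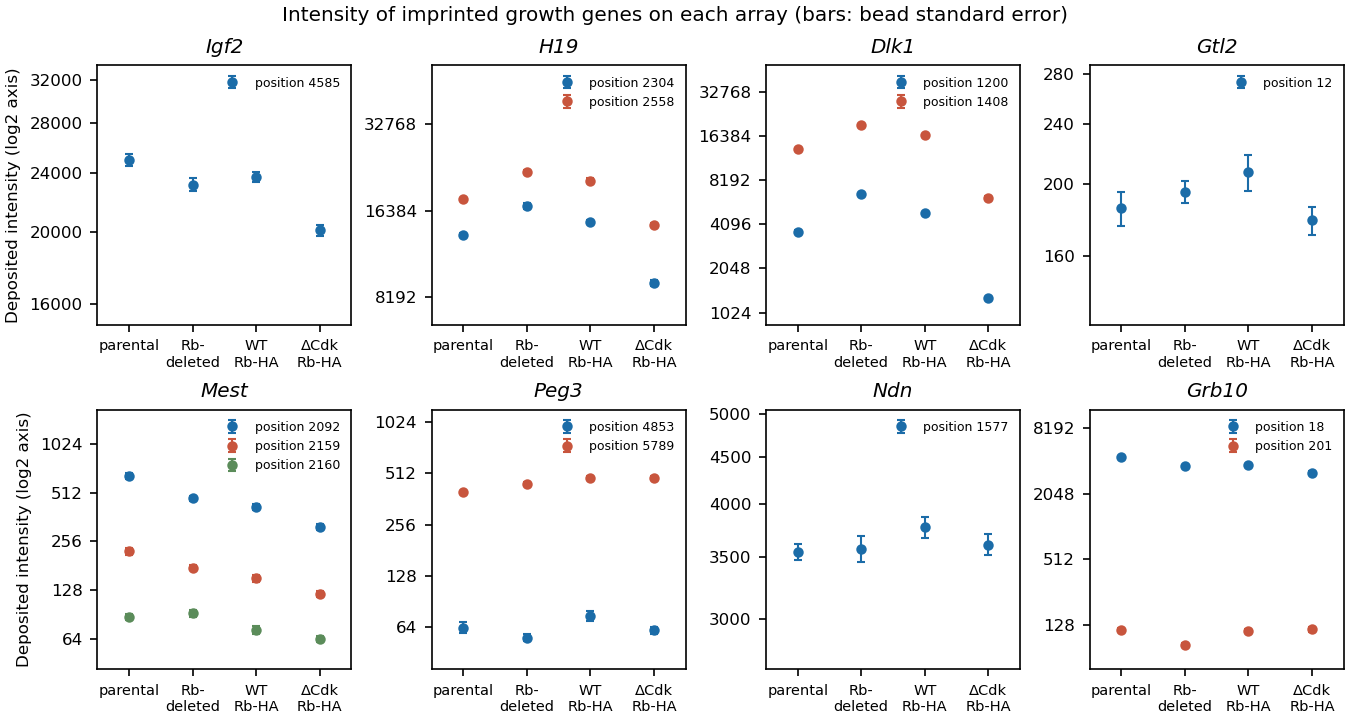
Deposited intensity (vertical axis, log2 scale, a different range in each panel) of each member probe detected on all arrays, on each array (horizontal axis: parental, Rb-deleted, then WT and ΔCdk Rb-HA). Points are single arrays and bars 1 bead standard error. Dlk1 drops to 6218 and 1287 with ΔCdk Rb-HA, Mest falls from left to right at 2092 and 2159, and Ndn stays between 3546 and 3774.

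Mest, a paternally expressed gene for an enzyme of the hydrolase family that is strongly expressed in mesoderm, was highest in parental MEFs and lowest in ΔCdk Rb-HA MEFs. Its brightest probe, at 2092 (chromosome 6), read 648.7 in parental, 471.4 in Rb-deleted, 418.5 in WT Rb-HA and 314.2 in ΔCdk Rb-HA MEFs. The ΔCdk Rb-HA array was thus 2.04-fold below the parental array (log2 ratio -1.03, bead SE 0.09). Rb-deleted and WT Rb-HA lay at -0.44 (bead SE 0.08) and -0.62 (bead SE 0.08) to parental, inside 1.6-fold. The probe at 2159 (221.7, 176.2, 151.5 and 120.8) gave the same order and -0.98 (bead SE 0.11) for ΔCdk Rb-HA against parental. The dimmer probe at 2160 read 87.4, 92.1, 72.4 and 63.9. It differed from 2159 in the comparison of Rb-deleted with parental, at 0.14 (bead SE 0.13) against -0.35 (bead SE 0.10), although the probes are nearly the same in sequence. For ΔCdk Rb-HA against parental it gave -0.65 (bead SE 0.14), with the same sign as the others.

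Peg3, a paternally expressed zinc finger protein, ran the other way, with parental lowest and ΔCdk Rb-HA highest. Its brightest probe, at 5789 (chromosome 7), read 397.6 in parental, 445.7 in Rb-deleted, 480.7 in WT Rb-HA and 482.9 in ΔCdk Rb-HA MEFs. Against parental the log2 ratios were 0.22 (bead SE 0.04), 0.34 (bead SE 0.05) and 0.39 (bead SE 0.04), and the retroviral arrays differed by less than 2 bead SE. The dim probe at 4853 read 63.5, 55.4, 74.7 and 61.3 and gave -0.29 (bead SE 0.21), 0.33 (bead SE 0.22) and -0.08 (bead SE 0.21), none over 2 bead SE. The third Peg3 probe, at 2983, was not detected.

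Ndn, which encodes necdin, a paternally expressed protein that binds E2F factors and restrains growth much as Rb does, was the most even of the bright members. Its probe at 1577 (chromosome 7) read 3546 in parental, 3577 in Rb-deleted, 3774 in WT Rb-HA and 3613 in ΔCdk Rb-HA MEFs. Its whole span over the arrays was 0.14 on the log2 scale, from parental to WT Rb-HA (bead SE 0.04), which exceeded 2 bead SE, while no step between neighbouring arrays did. The ratio of ΔCdk Rb-HA to Rb-deleted was -0.00 (bead SE 0.06), and from -0.00 to 0.01 over the scalings.

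Grb10, an adaptor protein that dampens insulin and IGF1 receptor signalling and is maternally expressed in most fetal tissues, was highest in parental MEFs. At its brightest probe, at 18, it read 4407 in parental, 3641 in Rb-deleted, 3740 in WT Rb-HA and 3189 in ΔCdk Rb-HA MEFs. The log2 ratios to parental were -0.25 (bead SE 0.05), -0.23 (bead SE 0.05) and -0.45 (bead SE 0.05), and Rb-deleted and WT Rb-HA did not differ beyond 2 bead SE. The dim probe at 201 (113.7, 83.5, 111.5 and 116.2) set the Rb-deleted array lowest, and its ratio of ΔCdk Rb-HA to parental was 0.06 (bead SE 0.12), so that the probes of this gene disagreed.

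Plagl1, the paternally expressed zinc finger factor also known as Zac1, is known to act on several of the other members. Its 3 probes, at 604, 2493 and 2693 (chromosome 10), read between 34.9 and 45.7 on all 4 arrays and were not detected on any. No difference could be given for it, since the readings lay at background, and of the members with a probe it alone was not seen to be active in these fibroblasts.

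The members did not move as 1 group. By the brightest probe, Igf2, Mest and Grb10 were highest on the parental and lowest on the ΔCdk Rb-HA array, as were 12.6% of all genes analysed. H19 and Dlk1 were highest on the Rb-deleted and lowest on the ΔCdk Rb-HA array, as were 12% of all genes. Peg3 and Ndn were lowest on the parental array, as were 31% of all genes. The step of Ndn from parental to the next array, 0.08 (bead SE 0.05), was within 2 bead SE. Gtl2 had no settled lowest array, since its ratio of ΔCdk Rb-HA to parental was 0.00 after quantile normalization, with parental lowest by less than the rounding, and -0.07 after median scaling, with ΔCdk Rb-HA lowest as in its deposited intensities. What 5 of the 8 detected members shared, or 6 with Gtl2 under median scaling, was the lowest place of ΔCdk Rb-HA, where 29.6% of all genes had their lowest value after quantile normalization. The grouping by highest and lowest array, which leaves out the size of the differences, did not follow the parent of origin. H19 (maternal) sat with Dlk1 (paternal), and Igf2 and Mest (paternal) with Grb10 (maternal). Nor did the grouping follow the domain, because Igf2 and H19 did not share an order. Dlk1 and Gtl2 did not share one either, although the steps of Gtl2 were within 2 bead SE. Dlk1 and Mest spanned over 1.6-fold between their highest and lowest arrays, as did 11.2% of all genes, and the median span was 0.42 on the log2 scale for the members and 0.36 for all genes.

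Without the ΔCdk Rb-HA array, no member passed 1.6-fold by its brightest probe. The dimmer Dlk1 probe, at 1200, did so for Rb-deleted against parental, at 0.94 (bead SE 0.04). Dlk1 ratios were smaller in size at the brighter probe, 1408, in each comparison. H19 ratios were smaller at the brighter probe, 2558, except in WT Rb-HA against parental (0.16, and 0.09 at 2304). Whether the brightest readings, those of Igf2 included, were compressed near the top of the array's range was not tested. For Rb-deleted against parental, 5 of 8 ratios were above 0 and the median was 0.10, beside 0.02 over all genes. No member was called in either direction, against a background of 2.14% of genes called higher and 2.98% called lower. For WT Rb-HA against parental, 5 of 8 ratios were above 0, with a median of 0.15 beside 0.01, and none was called against 0.888% called higher and 2.46% called lower. Between WT Rb-HA and Rb-deleted MEFs the members were nearest to each other, with 4 ratios above 0, a median of 0.00 beside -0.02, and no call against 0.539% higher and 0.484% lower.

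The ΔCdk Rb-HA array held all the calls. Against parental, 5 of 8 members were lower, with a median of -0.32 beside -0.01, and Dlk1 and Mest were called lower, against 2.58% of genes called higher and 3.3% called lower. Against Rb-deleted, 7 of 8 ratios were below 0, where 6858 of all 12616 genes were, with a median of -0.21 beside -0.03. The 7 include Ndn at -0.00 (bead SE 0.06), whose sign changed with the scaling, and Gtl2 at -0.11 (bead SE 0.09). In this comparison Dlk1 was called, against 2.31% higher and 1.95% lower. Against WT Rb-HA, 7 of 8 ratios were below 0, where 6476 of 12616 genes were, with a median of -0.21 beside -0.01. Of the 8, 5 differed by over 2 bead SE, where 36.5% of all genes did. Ndn at -0.06 (bead SE 0.05) and Gtl2 at -0.21 (bead SE 0.12) did not. Here Dlk1 was called, against 0.84% higher and 1.01% lower. Peg3 was the exception in both of the last comparisons, at 0.17 (bead SE 0.04) and 0.05 (bead SE 0.05). These 3 comparisons share the ΔCdk Rb-HA array and the 3 comparisons with parental MEFs share the parental array, so that none is an independent check of another. Of the 8 members, 6, 7 and 6 differed by over 2 bead SE in the comparisons of Rb-deleted, WT and ΔCdk Rb-HA MEFs with parental, where 51.2%, 46.8% and 53.3% of all genes did.

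**Figure D2:**
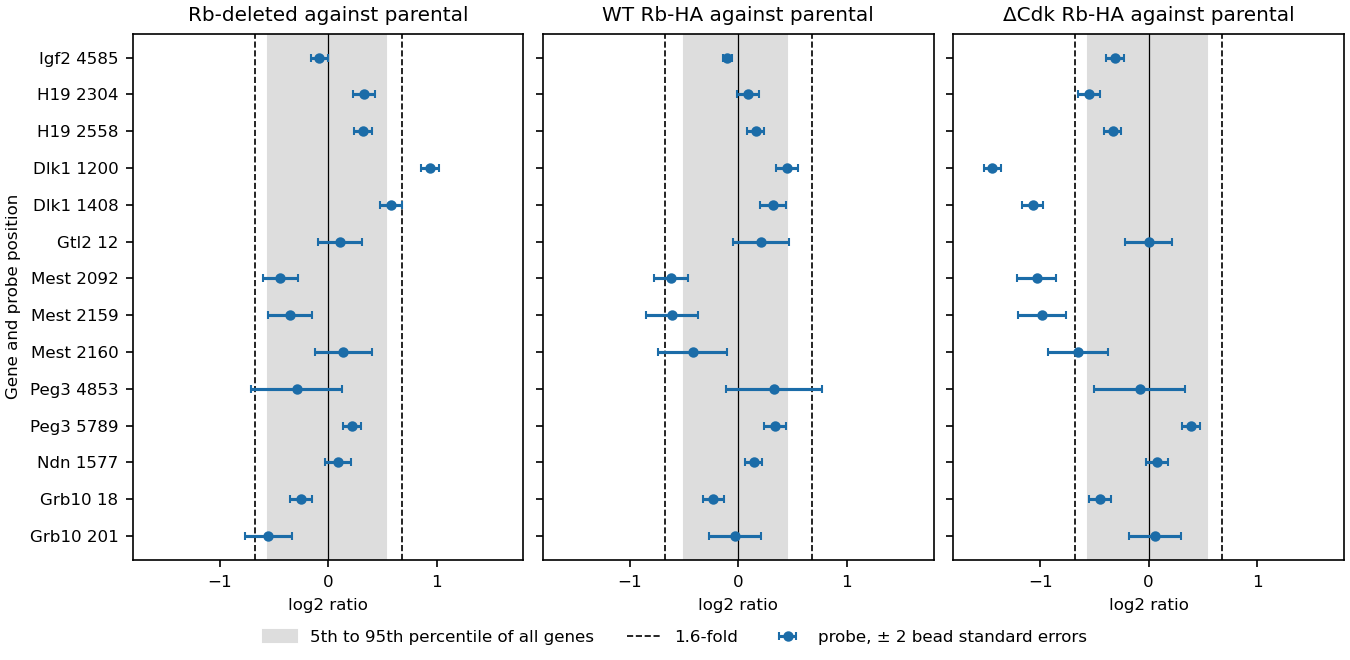
log2 ratio to the parental array (horizontal axis) of each member probe detected on all arrays (vertical axis, gene and probe position), in a panel each for Rb-deleted, WT and ΔCdk Rb-HA MEFs. Bars are 2 bead standard errors, dashed lines mark 1.6-fold, and grey shows the 5th to 95th percentile of all genes. The Dlk1 probes lie to the right in Rb-deleted MEFs (0.58 and 0.94) and far to the left in ΔCdk Rb-HA MEFs (-1.07 and -1.44).

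Other imprinted genes were taken from a list of 65, of which 57 had a probe and 30 were detected. Their medians were near 0 in every comparison, from -0.04 to 0.08. The arrays do not tell maternal from paternal copies apart, so that whether each listed gene is imprinted in these fibroblasts was not tested. Cdkn1c, the maternally expressed Cdk inhibitor p57 from the domain beside Igf2 and H19 on chromosome 7, had the widest span. It read 4613 in parental, 8789 in Rb-deleted, 7049 in WT Rb-HA and 2504 in ΔCdk Rb-HA MEFs, the same order as Dlk1. Its log2 ratio was 0.95 (bead SE 0.03) for Rb-deleted and -0.85 (bead SE 0.04) for ΔCdk Rb-HA against parental, and -1.79 (bead SE 0.03) for ΔCdk Rb-HA against Rb-deleted. Atp10a, from the Ndn region, read 255.2, 238.2, 216.2 and 160.0 and was called lower in ΔCdk Rb-HA against parental, at -0.69 (bead SE 0.08). Tnfrsf23, a decoy receptor gene of the Cdkn1c domain, read 118.7, 98.6, 125.7 and 150.7 and was called higher in ΔCdk Rb-HA against Rb-deleted, at 0.78 (bead SE 0.15).

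Some of the calls among the other imprinted genes rest on readings near background. Dio3, the deiodinase gene of the Dlk1 domain, read 53.7 in parental MEFs, where it was not detected, and 75.1, 60.2 and 60.0 on the other arrays. After background correction its level in Rb-deleted MEFs exceeded the parental one at least 1.58-fold, a bound that rests on that correction, since the deposited readings lie closer together. Magel2, a neighbour of Ndn, was detected only in WT Rb-HA MEFs, at 59.8, which on the same corrected scale gives a difference of at least 1.13-fold to Rb-deleted and 1.09-fold to ΔCdk Rb-HA MEFs.

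In all, 2 of the 30 were called higher in Rb-deleted against parental (Cdkn1c and Dio3), where 2.14% of all genes were. In ΔCdk Rb-HA MEFs 2 were called lower against parental (Cdkn1c and Atp10a), where 3.3% of all genes were. Against WT Rb-HA 2 were called lower there (Cdkn1c and Magel2), where 1.01% of all genes were. Against Rb-deleted MEFs, Magel2 was called higher in WT Rb-HA, as were 0.539% of all genes. Magel2 was among the 30 only through its detection on the WT Rb-HA array, so its calls on that array are no separate result. The bounds given above for Magel2 and Dio3 were all below 1.6-fold. Tnfrsf23 was called higher and Cdkn1c lower in ΔCdk Rb-HA against Rb-deleted, as were 2.31% and 1.95% of all genes. The other 25 were not called in any comparison, Igf2r, Cd81, Gnas and Dcn among them.

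**Figure D3:**
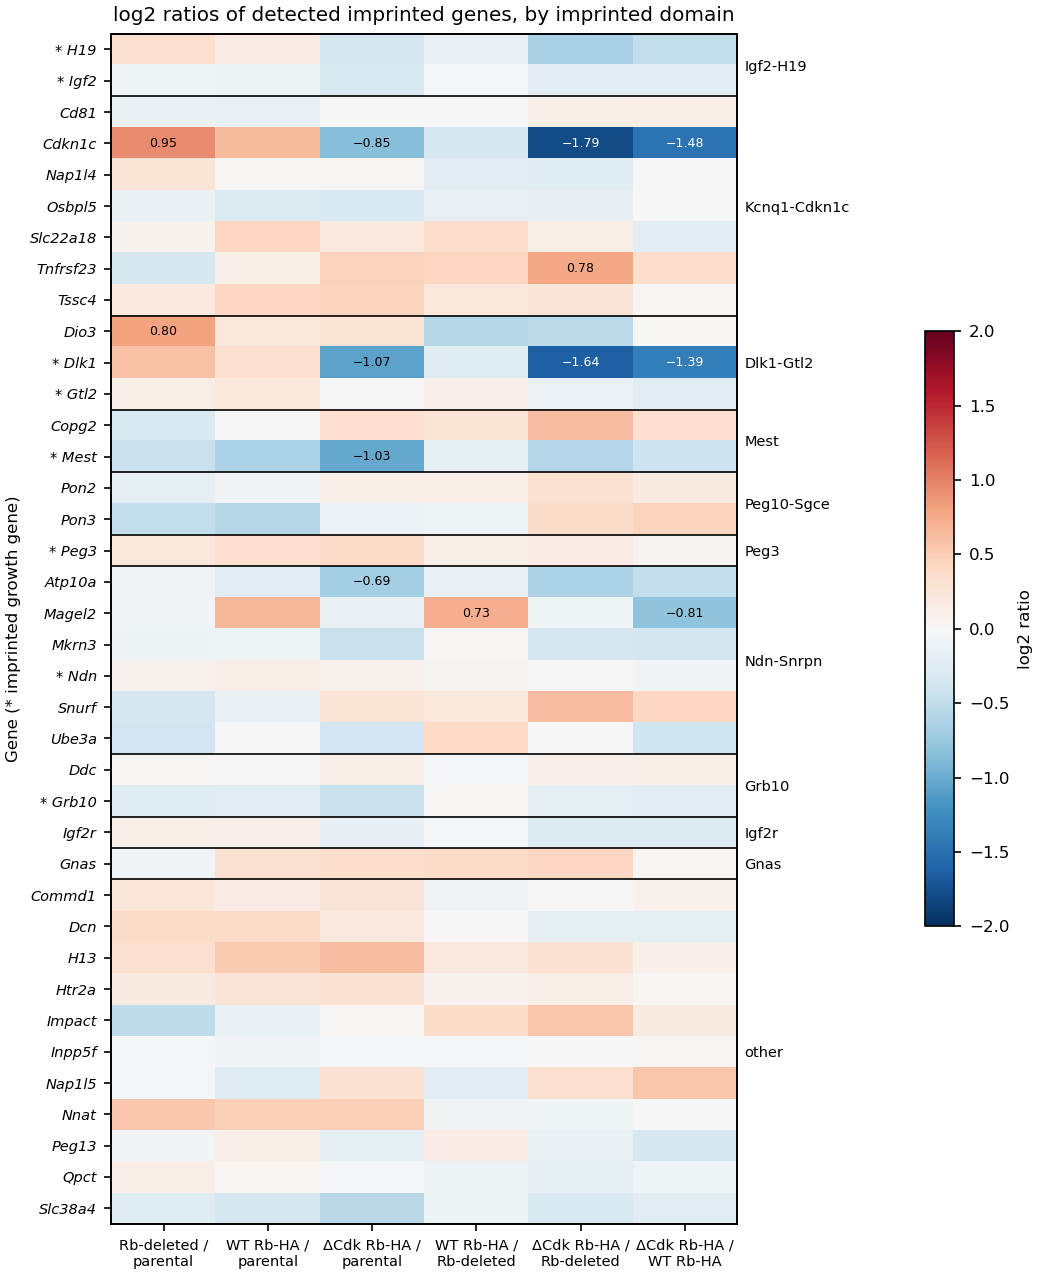
log2 ratios (colour, from -2 to 2) of the detected imprinted genes (rows, grouped by imprinted domain, members marked by an asterisk) in the 6 comparisons (columns). Printed values passed 1.6-fold; those of Dio3 and Magel2 rest on arrays where the gene was not detected. Cdkn1c (-1.79) and Dlk1 (-1.64) are the darkest cells, in the comparison of ΔCdk Rb-HA with Rb-deleted MEFs.

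The genes most like Dlk1 and Mest were sought among 10836 genes detected on all arrays, by the distance between log2 levels centred on their mean over the 4 arrays. Nearest to Dlk1 were Col8a2 (distance 0.11), AW120700 (0.13) and Col14a1 (0.15), of which Col8a2 and Col14a1 encode collagens. Col14a1 read 145.8 in parental, 230 in Rb-deleted, 182.7 in WT Rb-HA and 83.7 in ΔCdk Rb-HA MEFs. Cdkn1c stood in place 5 (distance 0.28), and H19 in place 121 (0.78). Counted from H19, Dlk1 stood only in place 9556, and Igf2 was nearer, in place 1594 (distance 0.36). Nearest to Mest were Daxx (0.09), Ifitm3 (0.10) and Bcl3 (0.11), a chromatin and apoptosis regulator, an antiviral membrane protein and a cofactor of NF-κB. Ifitm3 read 14255 in parental, 10819 in Rb-deleted, 9999 in WT Rb-HA and 7691 in ΔCdk Rb-HA MEFs. Among imprinted genes, Atp10a (0.33), Slc38a4 (0.34) and Grb10 (0.43) stood in places 150, 162 and 466 from Mest. These likenesses over 4 arrays are descriptions.

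**Figure D4:**
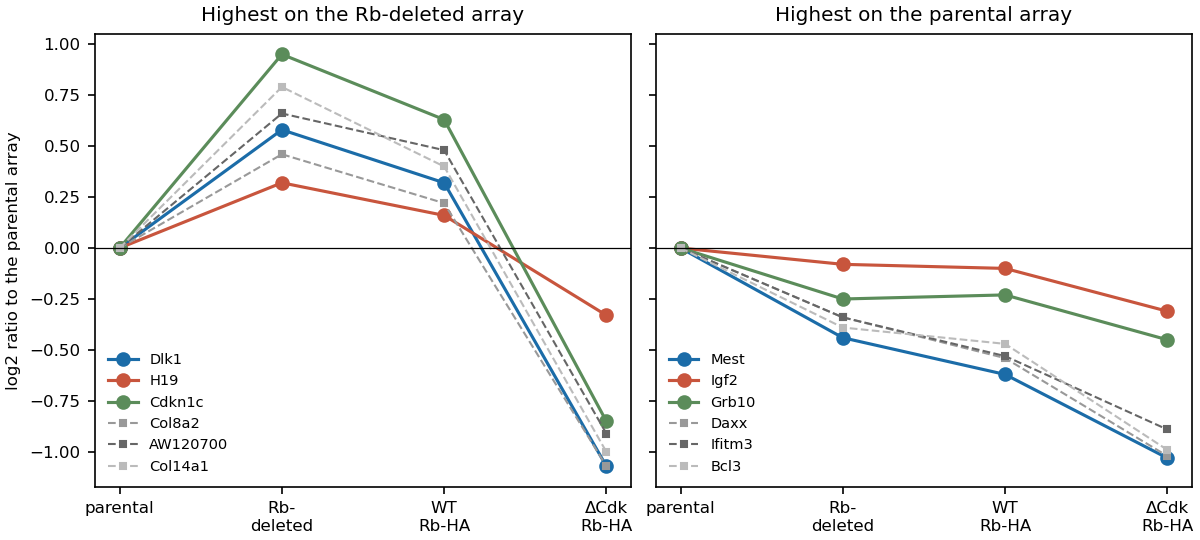
log2 ratio to the parental array (vertical axis) on the 4 arrays (horizontal axis) for genes highest in Rb-deleted MEFs (left) and in parental MEFs (right). Circles with solid lines are imprinted genes and squares with dashed lines the 3 genes nearest to Dlk1 or Mest. Dlk1 and Cdkn1c rise to 0.58 and 0.95 and drop to -1.07 and -0.85, while Mest declines to -1.03.

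The receptors and signalling partners of IGF2 were less variable than Dlk1. Of 12 listed genes 10 were detected. None was called in any of the 6 comparisons, where 0.484% to 3.3% of all genes were called in each direction. Only 11.2% of all genes spanned over 1.6-fold, so the lack of a call among 10 genes does not set them apart. Igf1r, the main signalling receptor, read 638.8 in parental, 543 in Rb-deleted, 528.7 in WT Rb-HA and 507.7 in ΔCdk Rb-HA MEFs, with log2 ratios to parental of -0.21, -0.23 and -0.26. Igf2r, the maternally expressed receptor that clears IGF2 and is counted among the other imprinted genes too, read 1291, 1348, 1324 and 1075. Grb14, a relative of Grb10, read 149.1, 135.4, 144.1 and 197.8, and its 0.67 for ΔCdk Rb-HA against Rb-deleted was just inside 1.6-fold.

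Genes that maintain imprints showed an order of their own. Of 16 listed genes 12 were detected. Uhrf1, which brings the maintenance methyltransferase to newly copied DNA, read 594.2 in parental, 1552 in Rb-deleted, 750.5 in WT Rb-HA and 1120 in ΔCdk Rb-HA MEFs. Dnmt1, that methyltransferase, read 327, 656.7, 368 and 433 in the same order. Both were called higher in Rb-deleted against parental (1.47 and 1.11), as were 2.14% of all genes. Both were called lower in WT Rb-HA against Rb-deleted (-1.07 and -0.86), as were 0.484% of all genes. In ΔCdk Rb-HA MEFs Uhrf1 was called higher than in parental MEFs (1.04) and Dnmt1 was not (0.53). Dnmt3l, a cofactor of the germ line methyltransferases, was dim (66.8 to 102). It was called higher in ΔCdk Rb-HA against parental (0.89), as were Uhrf1 and 2.58% of all genes. Rad21, a cohesin subunit, was called lower in WT Rb-HA against parental (-0.75), as were 2.46% of all genes. Trim28, Ctcf, Setdb1, Smchd1, Smc3, Dnmt3b and Zfp57 were not called in any comparison. Dlk1, H19 and Cdkn1c shared with Uhrf1 and Dnmt1 the highest place of Rb-deleted MEFs, but unlike them were lowest in ΔCdk Rb-HA MEFs. The Rb-deleted array was the highest for 29.4% of all genes.

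Cell type markers were read beside these results. All 11 fibroblast markers with a probe were detected on every array, with summed intensities of 56241 in parental, 49259 in Rb-deleted, 54872 in WT Rb-HA and 49733 in ΔCdk Rb-HA MEFs. In ΔCdk Rb-HA against parental MEFs 5 of the 11 were above 0 and 6 below, with a median of -0.04. Col3a1 (9036, 5321, 5985 and 4638) was called lower there, at -0.98, and also in Rb-deleted against parental, at -0.73. In WT Rb-HA against parental it stood at -0.60. Pdgfrb (367.7, 434.8, 366 and 231) was lower in ΔCdk Rb-HA against parental, at -0.65. Pdgfra, Col1a2, Col1a1 and Vim stood at -0.63, -0.45, -0.34 and -0.04. S100a4, Thy1, Prrx1, Fn1 and Twist1 stood at 0.41, 0.23, 0.18, 0.13 and 0.11. Pdgfrb was also called lower in ΔCdk Rb-HA against Rb-deleted, at -0.95, and against WT Rb-HA, at -0.70. Of 10 macrophage markers 8 were detected on every array and Ptprc and Fcer1g on none. Their summed intensity was 10435 in parental MEFs and 5542, 5065 and 6468 in the other cultures, and all 8 were lower than parental in each, by medians of -0.84, -1.01 and -0.96, although the Lyz, Lyz2 and Lyzs probes may read the same transcripts. The part of these marker differences in the members' ratios to the parental array was not tested. Of 10 muscle markers 4 were detected, with Myod1 and Myf5 on no array, of 6 endothelial markers 1, of 7 epithelial markers 5, of 6 neural markers 3, and of 5 fat cell markers only Pparg.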

How the data were processed

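RNA of 1 culture per condition was hybridised to 1 array each. The authors deposited the linear intensity of each probe, averaged over its beads and not normalized, with a detection p-value, bead standard error and bead number per probe; their array software is not given in the sources used here. Here background was corrected by limma (3.58.1, R 4.3.3; normexp from detection p-values, offset 16), followed by quantile normalization and log2. Genes were kept with a detection p below 0.01 on at least 1 array and read by their brightest such probe. Groups came from the sample labels. Of 44 symbols turned into dates in the table, 34 were restored. Bead standard errors were carried through each array's normalization. The normalization was tested on simulated data. No p-value between conditions is possible with 1 array each.

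Named were all member probes, Rb1, listed genes past 1.6-fold in at least 1 comparison (at most 10 per list), and the 3 genes nearest in pattern to each member spanning over 1.6-fold. Further genes of the lists, such as Igf1r, Igf2r, Grb14, Col3a1 and Pdgfrb, and the other Meg3 probes were named after their values were seen. Members and lists were chosen with earlier results of these data known. Alternatives were no background correction, an offset of 50, median scaling, no normalization, 3 other filters (all 4 arrays, p below 0.05, none), the mean of all probes, folds of 1.5 and 2, and 2 bead standard errors. Figures were drawn with Python 3.11.15 and matplotlib 3.10.9.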

Additional observations from a re-analysis of the deposited data

How the results depend on the processing

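Without replicates, every difference above is a difference between single cultures, and the number of beads limits only the precision within an array. No paired analysis was possible because each condition has 1 array. With the mean of all probes, the members' median was 0.02 for Rb-deleted against parental and -0.25 for ΔCdk Rb-HA against parental. In the first comparison 1 member was called, against 1.97% of all genes called higher and 2.83% lower. In ΔCdk Rb-HA against Rb-deleted 2 members were called, against 2.14% higher and 1.72% lower. At 1.5-fold, 1 member was called in WT Rb-HA against parental and 2 in ΔCdk Rb-HA against Rb-deleted. The share of all genes past 1.5-fold was not computed, so these counts cannot be set against it. Median scaling gave 1 call in WT Rb-HA against parental (Mest, -0.70), against 0.642% of all genes called higher and 3% lower. Requiring 2 bead standard errors, a 2-fold threshold, other filters on dim probes, the offset of 50, no background correction and no normalization left the members' counts within 1.5 times. The members' median for WT Rb-HA against Rb-deleted, 0.00, was -0.02 without a filter on dim probes; the other medians kept their sign under every alternative run, and no scaling moved the median of all genes by over 0.1.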
